A study of Homo sapiens with 13 samples.

Results

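MALAT1 and NEAT1 are long noncoding RNAs that stay in the nucleus, encoded next to each other on the plus strand of chromosome 11. All entries with either gene name were taken, whatever their values: 54 of the 8100 windows in the authors' table of altered SRSF2 binding, and 2 of the 58581 genes counted by RNA-seq. The cells were HEL, a human erythroleukemia line with erythroid and megakaryocytic features, stably transduced with SRSF2, either wild type (WT) or carrying the P95H substitution found in myelodysplasia, under doxycycline control. Binding was measured by HITS-CLIP, which sequences RNA crosslinked to an immunoprecipitated protein, through the Flag tag, in 4 samples of each genotype, induced with doxycycline (1 µg/ml) for 36 hours. RNA-seq libraries, made after removal of ribosomal RNA, came from 2 WT and 2 P95H samples induced for 48 hours at the same dose, plus a P95H sample that the labels give as uninduced. Replicates are called biological in the labels, which say nothing further about their origin, so p-values measure only the spread between these samples. The sources used here do not give the promoter of the transgene, the number of clones or how much endogenous SRSF2 the cells kept.

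SRSF2 is an SR protein that binds short exonic motifs and helps to define exons, and it is itself a component of nuclear speckles. Substitutions at proline 95 are known to shift its preference toward C-rich over G-rich forms of its motif. MALAT1 is an unspliced, very abundant RNA concentrated in nuclear speckles, where pre-mRNA splicing factors are stored; RNase P cuts its 3′ end and releases a small tRNA-like RNA, mascRNA. NEAT1 is the scaffold of paraspeckles, and is made as a short and a long transcript from the same start, of which the long one builds the body. Window sequences were not analysed here.

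In MALAT1, binding in P95H was lower near the 5′ side of the listed windows and higher downstream. The authors' deposited table held 51 MALAT1 windows of 20 or 21 nucleotides, of which 30 were gained (more binding in P95H) and 21 were lost. Over the whole of the authors' deposited table, 22.3% of windows were gained and 77.7% lost, against 58.8% gained in MALAT1. Other windows annotated to lincRNA transcripts numbered 185 in the authors' deposited table, with 87 gained, or 47.0%. MALAT1 ranked 10 by number of windows among 2384 genes and ranked 1 by gained windows, with 30 against 18 for the next gene in the authors' deposited table. Because that table lists only windows with an adjusted p (FDR) no higher than 0.05 and an absolute log2 change no smaller than 1, a stretch without listed windows is not shown to be unbound. Many windows overlap and share reads, so they are not independent measurements. Merged where they overlapped in the same direction, they formed 25 regions, 16 gained and 9 lost. Merged alike, 1271 of 3757 regions were gained over the whole of the authors' deposited table, and 60 of 103 in other lincRNA transcripts. By regions, the gained share of MALAT1 was thus closer to that of other lincRNA transcripts than to the whole.

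**Figure D1:**
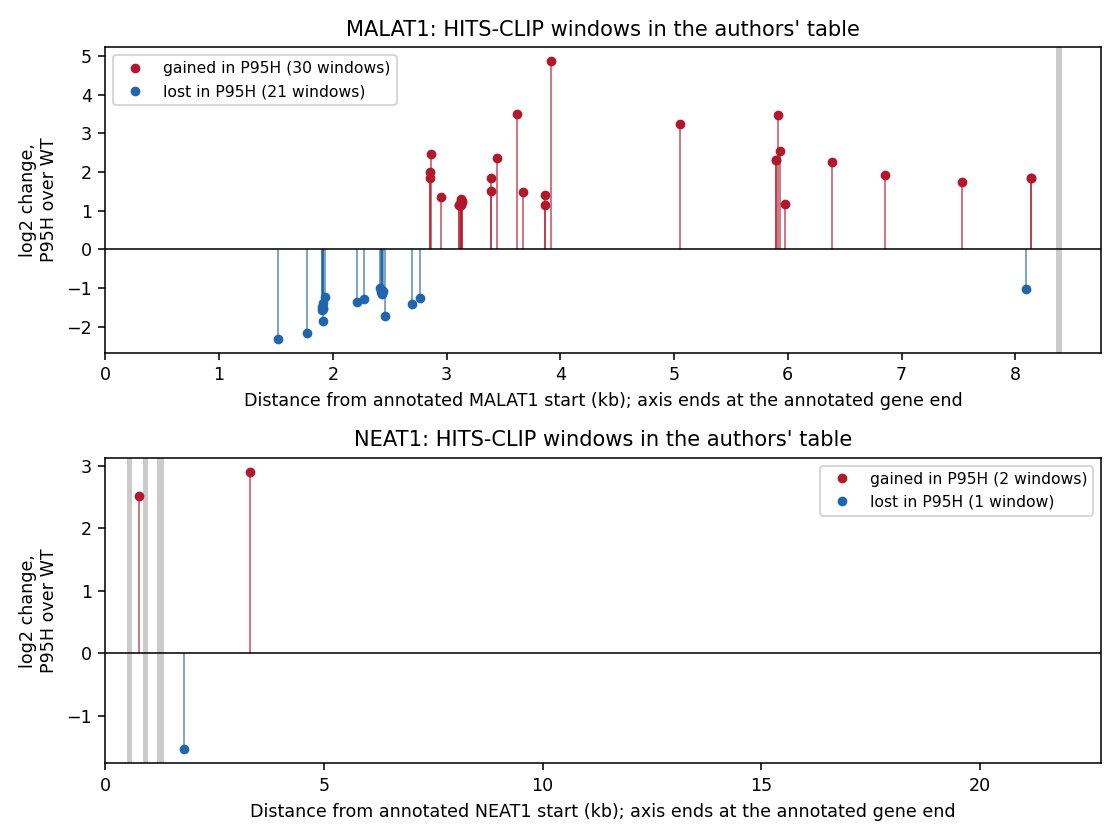
Each stem is 1 window of the authors' deposited table, placed by its distance in kb from the annotated gene start, with the log2 change of P95H over WT on the vertical axis (red gained, blue lost); grey bars mark mascRNA in MALAT1 and 3 annotated conserved elements in NEAT1. In MALAT1 20 lost windows precede the first gained one, and all 3 NEAT1 windows lie near the start.

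The annotated MALAT1 gene (ENSG00000251562) spans 8755 nucleotides, from 65497762 to 65506516 on GRCh38. No window was listed in its first kb, and the first one lay 1517 nucleotides from the annotated start. From there to 2787 nucleotides the authors' deposited table listed 20 windows, all lost. After a gap of 65 nucleotides the first gained window began at 2852. All 15 windows between 3 and 4 kb were gained, none was listed between 4 and 5 kb, and 6 gained windows lay between 5 and 6 kb. Gained windows continued thinly after that, with 2 between 6 and 7 kb, 1 between 7 and 8 kb and 2 beyond 8 kb. The single lost window outside the 5′ block lay at 8096 nucleotides, and 20 nucleotides separated it from the last gained region. The final window ended 198 nucleotides before mascRNA (65506117 to 65506173). Whether window coordinates count from 0 or 1 is not given, so distances may be off by 1.

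Of all pairs of 1 gained and 1 lost MALAT1 window, the gained member was downstream in 95.6%. Overlapping windows enter this share separately, so some stretches are counted many times and the pairs are not independent. Among the 7 genes of the authors' deposited table with at least 5 windows of each kind, the same share was 100% in HNRNPU, 97.8% in HNRNPA1P10, 86.2% in HNRNPA1 and 40% in SFPQ. It was 0% in HERC2P9 and HERC2P2, near-identical pseudogenes whose reads could be split between copies. HNRNPA1P10 is a pseudogene of HNRNPA1, so these 2 genes may share reads as well and are not separate instances. The share was at least as high in HNRNPU as in MALAT1, so the order of windows is not shown to be particular to MALAT1.

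In WT cells, lost MALAT1 windows had a higher median CPM than gained ones. The lost windows had a median of 12.8 CPM in WT and 4.52 CPM in P95H in the authors' deposited table. Their log2 changes ran from -2.31 to -1.0, with a median of -1.36. Gained windows had a median of 1.67 CPM in WT and 6.19 CPM in P95H in the authors' deposited table, with log2 changes from 1.15 to 4.86 and a median of 1.84. Over the whole of the authors' deposited table, WT medians were 4.89 CPM in lost and 0.26 CPM in gained windows. In other lincRNA windows they were 3.685 and 0.42 CPM. Sorting listed windows by direction itself favours higher WT values among the lost ones, so this contrast is not particular to MALAT1. The total that these CPM refer to is not stated.

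The 5′ block held 8 regions. Its first, a single window at 65499279 to 65499299, had the largest loss of all MALAT1 windows in the authors' deposited table, with a log2 change of -2.31 (FDR 5.53e-05) and 2.49 ± 1.94 CPM in WT against 0.40 ± 0.36 in P95H (mean ± the authors' SEM). The second, at 65499533 to 65499553, was weakly bound in the authors' deposited table, at 0.48 ± 0.39 CPM in WT and 0.09 ± 0.07 in P95H, with a log2 change of -2.15 (FDR 0.0106). These SEM intervals of WT and P95H overlapped at both windows.

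The third region, 65499668 to 65499711, held 7 overlapping windows and was the best bound place in the 5′ block. Its highest window reached 26.89 ± 9.87 CPM in WT and 9.40 ± 4.11 in P95H in the authors' deposited table, with intervals that did not overlap. Its largest change was -1.84 (FDR 0.000171) at 65499672 to 65499692, from 19.09 ± 7.43 CPM in WT to 5.20 ± 2.27 in P95H, per the authors' deposited table. Nearby windows starting at 65499668 and 65499675 had changes of -1.56 (FDR 0.00141) and -1.53 (FDR 0.00199) in the authors' deposited table. In WT they stood at 26.77 ± 9.95 and 12.82 ± 4.80 CPM, and in P95H at 8.94 ± 4.36 and 4.29 ± 2.19 CPM, per the authors' deposited table. In 6 of the 7 windows the SEM intervals stood apart.

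Single-window regions followed, at 65499974 and 65500033, with log2 changes of -1.36 and -1.27 in the authors' deposited table. Another block of 7 windows, 65500177 to 65500239, was bound at up to 19.19 ± 5.93 CPM in WT and 8.70 ± 3.18 in P95H in the authors' deposited table. Most of that block changed by close to the listing limit, from -1.0 to -1.14, apart from its last window, at 65500219 to 65500239. There the authors' deposited table gave -1.71 (FDR 0.00129), with 3.90 ± 2.90 CPM in WT and 1.08 ± 0.50 in P95H. SEM intervals stood apart in 4 of the 7. The last 2 regions of the 5′ block, at 65500455 and 65500529, had changes of -1.40 and -1.26 in the authors' deposited table.

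**Figure D2:**
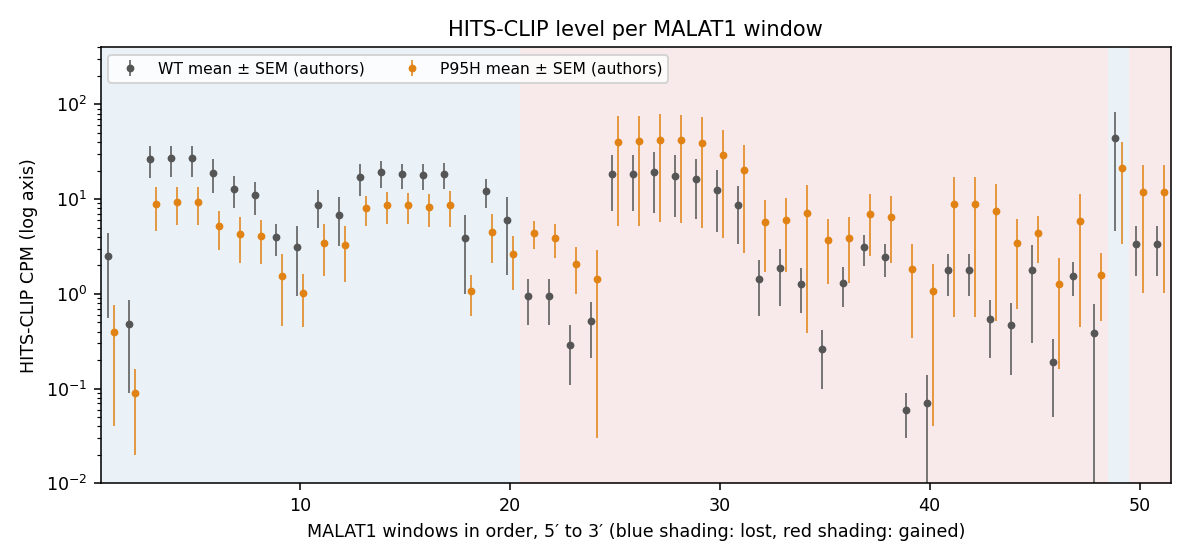
Mean CPM per MALAT1 window in WT (grey) and P95H (orange) with the authors' SEM, on a log axis, in order from 5′ to 3′; blue shading marks lost and red shading gained windows, and SEM bars that reach 0 are clipped at the axis. Lost windows reach 26.89 CPM in WT within the 5′ block, while gained windows exceed 20 CPM in P95H only in the region at 65500870 to 65500920.

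Among gained regions, the one closest to the 5′ block (65500614 to 65500647, 3 windows) had the tightest spread. Its highest window rose from 0.96 ± 0.49 CPM in WT to 4.44 ± 1.45 in P95H in the authors' deposited table, a log2 change of 2.01 (FDR 6.45e-05). The third of its windows, 65500627 to 65500647, had 2.46 (FDR 1.2e-05), from 0.29 ± 0.18 to 2.05 ± 1.05 CPM, in the authors' deposited table. All 3 windows had SEM intervals that stood apart.

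The best bound gained region was 65500870 to 65500920, with 7 windows. Its top window went from 19.31 ± 12.10 CPM in WT to 42.49 ± 36.71 in P95H in the authors' deposited table, and changes within it ran from 1.15 to 1.29. The spread in P95H was nearly as large as the mean, and the intervals overlapped in all 7 windows.

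The largest gain in MALAT1 was 4.86 (FDR 4.21e-09) at 65501680 to 65501700, from 0.06 ± 0.03 CPM in WT to 1.83 ± 1.49 in P95H, in the authors' deposited table. Next came 65501380 to 65501401 in the authors' deposited table, with 3.49 (FDR 1.61e-09) and 0.26 ± 0.16 CPM in WT against 3.71 ± 2.43 in P95H. At both places the SEM intervals stood apart, though both started from almost no signal in WT. Around them, gained windows at 65500717, 65501149 to 65501174, 65501203, 65501431 and 65501625 to 65501647 had changes between 1.16 and 2.37 in the authors' deposited table.

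Beyond 5 kb the gained windows were weakly bound in WT, as were the earlier ones outside the region at 65500870 to 65500920. At 65502812 to 65502832 the authors' deposited table gave 3.25 (FDR 1.99e-05), from 0.07 ± 0.07 CPM in WT to 1.06 ± 1.02 in P95H. A region of 4 windows at 65503659 to 65503711 followed. Its window at 65503680 had the smallest FDR of any MALAT1 window in the authors' deposited table, 3.59e-11, with a change of 3.47 from 0.54 ± 0.33 CPM in WT to 7.45 ± 6.93 in P95H. The neighbouring window at 65503691 had 2.55 (FDR 1.3e-06), from 0.47 ± 0.33 to 3.44 ± 2.74 CPM, in the authors' deposited table. None of these windows had SEM intervals that stood apart, so small FDR values went together with a wide spread over samples.

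Further 3′, single windows at 65503739, 65504154, 65504619 and 65505292 had changes of 1.18, 2.27, 1.91 and 1.73 in the authors' deposited table. The late lost window at 65505858 to 65505878 was the best bound MALAT1 window in WT, at 43.69 ± 39.10 CPM against 21.53 ± 18.20 in P95H, with a change of -1.01 (FDR 0.0401) in the authors' deposited table. Directly downstream, 65505898 to 65505919 was gained by 1.85 (FDR 0.000291), from 3.38 ± 1.85 to 11.96 ± 10.94 CPM, in the authors' deposited table. Both had SEM intervals that overlapped.

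Spread over samples differed between the 2 kinds of MALAT1 window. In the genotype with more binding, the SEM exceeded 0.8 of the mean in 18 of 30 gained windows (60.0%) and in 2 of 21 lost windows (9.52%) of the authors' deposited table. Over the whole of the authors' deposited table these shares were 37.5% of gained and 41.9% of lost windows. All 7 overlapping windows of the gained region at 65500870 to 65500920 are among the 18. The 2 lost regions of 7 windows each have none, so the contrast counts some stretches many times. If the SEM was taken over the 4 samples of a genotype, then at an SEM of 0.8 of the mean the highest sample holds at least 83.9% of the summed CPM, so most gained MALAT1 windows rest mainly on 1 P95H sample. Values per sample were not analysed here, and whether it is the same sample at each window was not tested. SEM intervals stood apart in 5 of 30 gained and 11 of 21 lost MALAT1 windows in the authors' deposited table, falling in 3 gained and 3 lost regions. Across the authors' deposited table they stood apart in 41.5% of gained and 28.3% of lost windows.

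**Figure D3:**
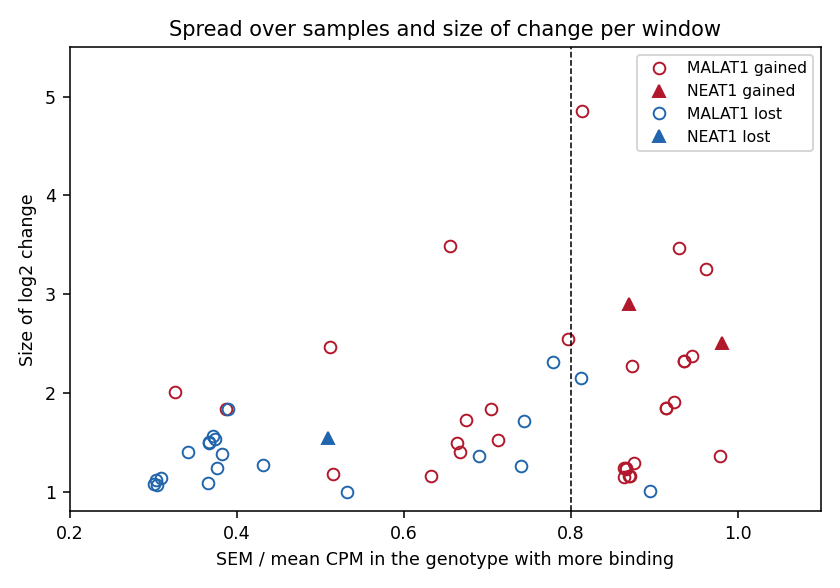
Each point is 1 window of the authors' deposited table; the horizontal axis is the SEM divided by the mean CPM in the genotype with more binding, and the vertical axis is the size of the log2 change. The dashed line marks 0.8, to the right of which lie 18 of 30 gained and 2 of 21 lost MALAT1 windows and both gained NEAT1 windows.

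NEAT1 (ENSG00000245532, 65422774 to 65445540 on GRCh38, 22767 nucleotides) had 3 windows, 2 gained and 1 lost, and all ended within the first 14.6% of its span, which both transcripts share. The first, at 65423553 to 65423573, lay 779 nucleotides from the start, between the first and the second of 3 annotated conserved elements. In the authors' deposited table it was gained by 2.51 (FDR 0.00127), from 0.21 ± 0.14 CPM in WT to 1.04 ± 1.02 in P95H. The lost window, 65424582 to 65424602, lay downstream of the elements and had -1.54 (FDR 0.0121), with 1.67 ± 0.85 CPM in WT and 0.53 ± 0.37 in P95H, in the authors' deposited table. The third, 65426075 to 65426095, was gained by 2.90 (FDR 2.64e-08), from 0.63 ± 0.40 to 5.61 ± 4.88 CPM, in the authors' deposited table. SEM intervals of the genotypes overlapped at all 3 windows. No order of gained and lost windows can be read from 3 windows. MALAT1 starts 52221 nucleotides further downstream, and no window of another gene name lay within the span of either gene.

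Windows on transcripts of the proteins that make up these bodies are described beside the whole table, in which 77.7% of windows were lost and 22.3% gained; the lists were not tested against it. Of 22 listed paraspeckle proteins, 13 had windows in the authors' deposited table, 15 gained and 99 lost (86.8% lost). HNRNPM, a splicing repressor, had 29 windows, all lost, in the authors' deposited table. EWSR1 (5 gained, 3 lost), SFPQ (5 gained, 7 lost) and HNRNPA1 (5 gained, 16 lost) had both kinds in the authors' deposited table. SFPQ, like NONO, binds RNA in paraspeckles. Of 22 nuclear speckle proteins, 18 had windows in the authors' deposited table, 22 gained and 99 lost (81.8% lost). RBM25 had 4 gained and 38 lost windows and ACIN1 23 lost in the authors' deposited table. Among the SRSF genes of the list, the authors' deposited table gave SRSF3, SRSF5 and SRSF7 1 gained window each, and SRSF4 4, SRSF11 3 and SRSF6 1 lost window, with none of the other kind. Of 18 genes for RNA 3′ end processing and methylation, only DROSHA (1 lost) and YTHDC1 (9 lost), a nuclear reader of methylated adenosine, had windows in the authors' deposited table. Among other noncoding RNAs, LINC00657 (3), TUG1 (1) and LINC00152 (1) had gained windows only, and GAS5 (4), ZFAS1 (2), SNHG1 (1) and KCNQ1OT1 (1) lost windows only, in the authors' deposited table. None of the 18 listed neighbouring genes of the locus had a window.

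RNA-seq libraries held 37414093 to 45005605 counts. SRSF2 itself was at 222 to 285 CPM, with the highest value in the library labelled uninduced. Its level thus does not set that library apart as lacking the transgene. Whether reads of the transgene were counted at this gene is not given. All 12 erythroid and megakaryocytic markers were above 1 CPM in every library, and 10 of 12 markers of other cells were below 1 CPM in every library, KRT18 and PECAM1 being the exceptions. Counts from the mitochondrial genome's protein-coding genes made up 1.38% in both replicate 1 libraries and 4.14% to 4.50% in the other 3, a split that follows the replicate number and not the genotype.

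MALAT1 RNA differed more between replicates than between genotypes. It had 53989 and 76339 counts in WT replicates 1 and 2, 53292 and 101993 in P95H replicates 1 and 2, and 66200 in the library labelled uninduced. Scaled by TMM, these were 1191 and 1893 CPM in WT, 1351 and 2298 CPM in P95H, and 1766 CPM in the library labelled uninduced. From lowest to highest the order was WT 1, P95H 1, uninduced, WT 2 and P95H 2, so that the genotypes overlapped. It ranked between 23 and 53 by count among all genes, and took 0.120% to 0.229% of counts.

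Replicate 2 exceeded replicate 1 by 0.67 on the log2 scale in WT and by 0.77 in P95H. Within a replicate number, P95H exceeded WT by 0.18 for replicate 1 and by 0.28 for replicate 2. Group means were 1542 ± 496 CPM in WT and 1824 ± 670 in P95H (SD, n = 2). The fitted log2 difference was 0.25 (SE 0.31), with an adjusted p of 0.9999 (edgeR, quasi-likelihood test, adjusted by Benjamini and Hochberg over all tested genes). Without WT replicate 1 the fitted difference was -0.045, and without P95H replicate 2 it was -0.19. Each of these fits leaves the replicate numbers unequal between genotypes. They therefore cannot tell a change of direction from the difference between replicates. In bulk RNA, more cells of one kind and more RNA per cell cannot be told apart.

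NEAT1 RNA was also higher in replicate 2 than in replicate 1 of either genotype. Its counts were 8699 and 9813 in WT, 9141 and 15601 in P95H, and 11031 in the library labelled uninduced. In TMM-scaled CPM these were 192 and 243 in WT, 232 and 352 in P95H, and 294 in the library labelled uninduced. P95H replicate 2 stood highest and WT replicate 1 lowest, while P95H replicate 1 lay below WT replicate 2, so the genotypes overlapped here too. Means were 218 ± 36.3 CPM in WT and 292 ± 84.8 in P95H (SD, n = 2).

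P95H exceeded WT in NEAT1 by 0.27 (log2) within replicate 1 and by 0.53 within replicate 2. The fitted difference was 0.43 (SE 0.22), with an adjusted p of 0.9999 by edgeR's quasi-likelihood test. That test called 0 of 22007 genes (0% called), and 227 genes had an unadjusted p under 0.05. DESeq2 also called 0, and 100 genes had an unadjusted p under 0.05. With the replicate number as a block, NEAT1 had a difference of 0.41 (SE 0.08) and an adjusted p of 0.00364 in edgeR, 1 of 84 genes called (0.382% of those tested, 0.186% higher and 0.195% lower). MALAT1 in the same edgeR fit had 0.24 (SE 0.08) and an adjusted p of 0.225. With so few libraries, edgeR draws the SE of this fit largely from the spread shared over genes. Nothing in the labels says that a number marks a shared culture or day, so the NEAT1 call rests on a pairing that the design does not state. Without P95H replicate 2 the NEAT1 difference without the block was 0.09, with replicate numbers then unequal between genotypes.

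**Figure D4:**
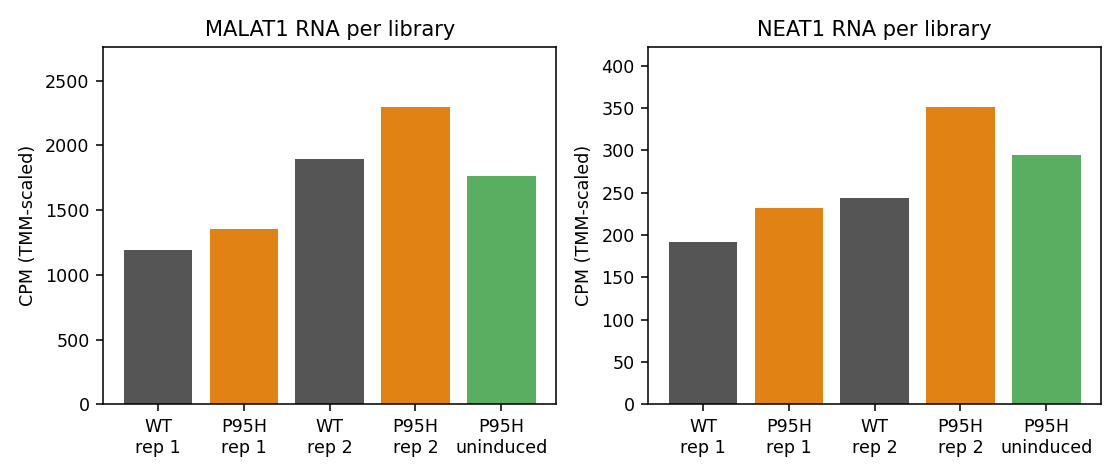
TMM-scaled CPM of MALAT1 and NEAT1 in each RNA-seq library, 1 bar per library and no error bar, ordered by replicate number. In both genes P95H is above WT of the same number, and replicate 2 is above replicate 1 of the same genotype.

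Compared per kb of annotated span, MALAT1 stood at 136 to 262.5 CPM per kb and NEAT1 at 8.43 to 15.4. The ratio of these levels, MALAT1 over NEAT1, was 16.1 and 20.2 in WT, 15.2 and 17.0 in P95H and 15.6 in the library labelled uninduced. Because counts per gene do not separate the short from the long NEAT1 transcript, the span overstates the length of the short one. The small RNAs annotated inside the genes (mascRNA, MIR612 and the 3 conserved NEAT1 elements) and AP000769.7, which is antisense to MALAT1, were listed at 0 counts in all 5 libraries. They lie wholly within the span of MALAT1 or NEAT1, so reads there overlap both annotations, and how such reads were counted is not given. These zeros therefore set no limit on the level of the small RNAs. Whether counting used strand is not given, so antisense reads within MALAT1 cannot be told apart from its own.

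Differences from the library labelled uninduced depended on which replicate was compared. MALAT1 in P95H was lower by 0.39 on the log2 scale in replicate 1 (-0.39) and higher by 0.38 in replicate 2, and in WT the values were -0.57 and 0.10. NEAT1 gave -0.34 and 0.26 in P95H and -0.62 and -0.27 in WT. The edgeR quasi-likelihood fit over 5 libraries gave P95H differences of 0.05 (SE 0.37, adjusted p 0.994) for MALAT1 and -0.01 (SE 0.26, adjusted p 0.997) for NEAT1. For WT the edgeR values were -0.20 (SE 0.36, adjusted p 0.946) and -0.44 (SE 0.26, adjusted p 0.896). Neither comparison called any of 23970 genes in edgeR (0%), with 818 and 1122 at an unadjusted p under 0.05, while DESeq2 called 7 in each. Both comparisons share the 1 uninduced library, which has no replicate of its own. With a term for replicate number and that library placed with replicate 2, where its mitochondrial share lies, edgeR gave MALAT1 in P95H 0.36 (adjusted p 0.00911, with 3.61% of genes called) and in WT 0.13 (adjusted p 0.501, with 5.89% called). Placed with replicate 1 instead, MALAT1 had -0.36 in P95H (adjusted p 0.00173) and -0.59 in WT (adjusted p 1.37e-08) by edgeR, with 15.4% of genes called in each. NEAT1 passed edgeR's threshold under the second placement only, at -0.28 in P95H (adjusted p 0.0343) and -0.68 in WT (adjusted p 2.34e-10), and had 0.19 and -0.21 under the first (adjusted p 0.331 and 0.216). No direction relative to the library labelled uninduced can therefore be given for MALAT1, or for NEAT1 in P95H.

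Between P95H and WT edgeR called 0 of 22007 genes (0%), so the absence of calls among genes of the same bodies and of the locus says nothing particular about them, and their values are given as a description. All 22 paraspeckle genes were tested, 13 positive and 9 negative, with a median of 0.01, beside a median of 0.00 over all genes, of which 50.5% were positive. The largest were SMARCA4 at -0.14, TAF15 at 0.12, HNRNPH3 at 0.12 and MATR3 at 0.09. Nuclear speckle genes had 12 of 22 positive and a median of 0.01, led by PRPF4B (0.15), a splicing kinase, PRPF8 (-0.14), a core spliceosome protein, SRRM1 (0.13) and SRSF5 (0.12). Of 16 tested genes for 3′ end processing and methylation, 7 were positive, with a median of -0.01. The RNase P subunits RPP21 and RPP14 were each at 0.48 but below 2 CPM in every library, and RPP40 was at -0.15 and METTL3, a methyltransferase, at 0.14. Other noncoding RNAs had 13 of 19 positive and a median of 0.06, with RN7SL1 at -0.76, MIAT at 0.46, FTX at 0.38 and KCNQ1OT1 at 0.24. RN7SL1 has near-identical copies, so its counts are uncertain, and MIAT was below 2 CPM in every library.

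Neighbours of the locus lay on both sides of 0. Of 15 tested neighbours 7 were positive, with a median of -0.03, and CDC42EP2 was at 0.36, FRMD8 at -0.26 and MAP3K11 at -0.16. MALAT1 and NEAT1 were not tested against any of these lists.

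**Figure D5:**
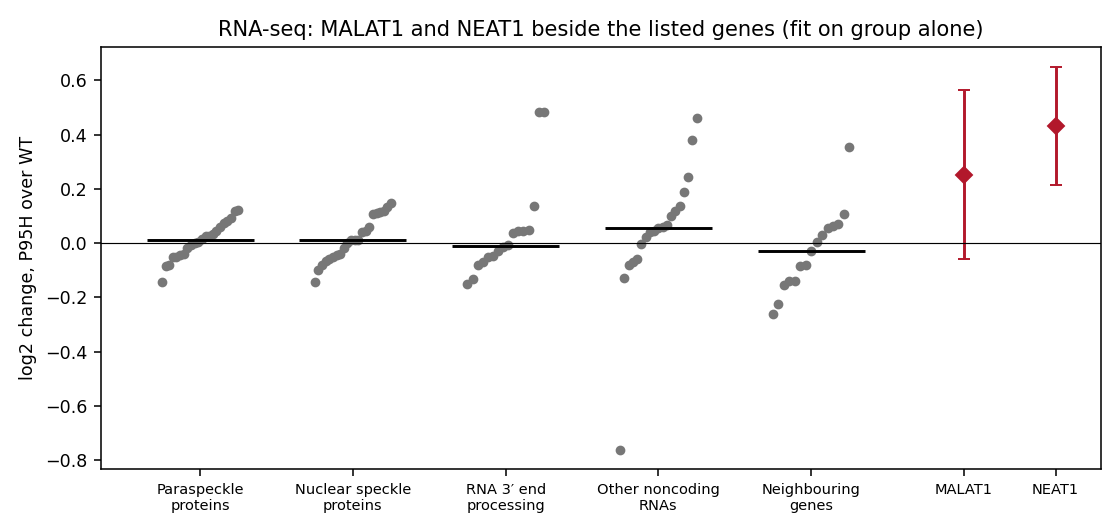
Fitted log2 differences of P95H over WT by edgeR for each tested gene of the 5 lists (points, with a bar at the list median) and for MALAT1 and NEAT1 (diamonds with SE). No gene shown passed the threshold, list medians lie between -0.03 and 0.06, and NEAT1 lies at 0.43.

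Genes whose centred log2 CPM followed MALAT1 most closely over the 5 libraries, by Euclidean distance among 6072 genes, were MAT2A (0.152), CCNL1 (0.223), SNHG4 (0.245), VMP1 (0.259) and HSPA5 (0.285). MAT2A, which makes S-adenosylmethionine, had 351 and 581 CPM in WT, 380 and 613 in P95H and 506 in the library labelled uninduced. For NEAT1 the closest were PIF1 (0.229), DDX39B (0.237), ZNF331 (0.255), SNHG4 (0.265) and MPDZ (0.283). SNHG4, a small nucleolar RNA host gene, was near both. MALAT1 ranked 9 for NEAT1 and NEAT1 ranked 15 for MALAT1, at a distance of 0.330. All these libraries share the split by replicate number described above, and its part in the likeness was not tested.

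Binding was taken at 36 hours and RNA at 48 hours, so a change in binding per RNA molecule was not tested for either gene. Within MALAT1 the authors' deposited table lists windows in both directions, whereas RNA-seq gives 1 value for the gene.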

How the data were processed

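HITS-CLIP values came from the authors' deposited comparison of P95H with WT, which per the file headers gives for each window a log2 change, an FDR (adjusted p-value), and the mean CPM and SEM per genotype. No source used here says how these were computed. Of 8324 entries 224 repeated a position, leaving 8100 windows. The authors deposited RNA-seq as raw read counts for each Ensembl gene. Without giving roles, the submitters' processing notes list TopHat2 2.0.14, STAR 2.5.3a, edgeR and GRCh38.p3.

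RNA-seq counts were tested in edgeR 4.0.16 under R 4.3.3 (filterByExpr, TMM, quasi-likelihood test, two-sided, Benjamini-Hochberg adjusted p under 0.05 over all tested genes) and, as an alternative, DESeq2 1.42.0. The P95H and WT comparison used 4 libraries, and those with the uninduced library used all 5. CPM in RNA-seq are TMM-scaled, and log2 CPM used a prior count of 2. Other normalizations, filters, left-out libraries and a replicate block were also run, and for windows a stricter FDR, a larger change, another merging distance and a CPM minimum.

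Members, gene lists and tests were chosen with earlier results of these data known. The text names every member, the 6 windows of largest gain and loss per gene in full, up to 4 genes of largest change per list (1 neighbouring gene is not reported here), and the 5 genes nearest in pattern among genes whose mean log2 CPM reached 5. Marker genes of HEL and of other cells served only to check the cell label. No genome sequence was used.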

Additional observations from a re-analysis of the deposited data

How the results depend on the processing

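The replicate block rests on numbers that pair 2 libraries of each genotype. Replicate 1 minus replicate 2 differed alike in WT and P95H, with a correlation of 0.474 across 23970 genes, which are not independent replicates. In edgeR the block raised calls between P95H and WT from 0 to 84 and gave NEAT1 an adjusted p of 0.00364 at 0.41. Placed with replicate 2, the library labelled uninduced gave 866 calls against P95H (3.61% of genes) and 1413 against WT (5.89%). Placed with replicate 1, it gave 3685 and 3697 (each 15.4%). MALAT1 was then 0.36 or -0.36 in P95H (adjusted p 0.00911 and 0.00173 by edgeR) and 0.13 or -0.59 in WT (0.501 and 1.37e-08). NEAT1 was 0.19 or -0.28 in P95H (0.331 and 0.0343) and -0.21 or -0.68 in WT (0.216 and 2.34e-10). The placement thus set the direction of 3 of these 4 differences.

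With no filter on low counts, edgeR called 15, 92 and 128 genes in P95H against WT, P95H against uninduced and WT against uninduced, and DESeq2 called 7 in each of the last 2; neither member was among the calls. Leaving out 1 library gave 0 calls in the first 2 comparisons and 0 to 2 in WT against uninduced. The P95H minus WT difference ranged from -0.19 to 0.62 for MALAT1 and from 0.09 to 0.70 for NEAT1, with replicate numbers then unequal between genotypes. Against uninduced, P95H ranged from -0.39 to 0.40 for MALAT1 and from -0.35 to 0.28 for NEAT1, and WT ranged from -0.56 to 0.10 and from -0.61 to -0.27. The NEAT1 difference of P95H from uninduced, -0.01, was 0.0114 with DESeq2, 0.0115 with RLE factors, 0.0113 with a mean count of 10 or more and 0.000704 with library totals alone. The cause was not tested.

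For windows of the authors' deposited table, an FDR of at most 0.01 left MALAT1 21 gained windows in 14 regions. Its lost windows fell to 10 in 5 regions. NEAT1 kept 2 gained windows and 0 lost at that limit. An absolute log2 change of at least 2 left MALAT1 11 gained windows in 7 regions and 2 lost windows in 2 regions, and NEAT1 0 lost. Under both, gained windows were downstream in 100% of MALAT1 pairs. The late lost window at 65505858 (log2 change -1.01, FDR 0.0401) passed neither limit, so this value does not test the order. A mean CPM at or above the table median, in the genotype with more binding, left NEAT1 1 gained window and 0 lost. That setting kept the late lost MALAT1 window, and gained windows were downstream in 94.9% of pairs.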
